A study of Saccharomyces cerevisiae with 10 samples.

Results

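The flocculin genes of budding yeast and the noncoding RNAs at the FLO11 promoter were followed across 5 strains. The set comprised FLO1 (YAR050W), FLO5 (YHR211W), FLO9 (YAL063C), FLO10 (YKR102W) and FLO11 (YIR019C), their transcription factor gene FLO8 (YER109C), and the noncoding RNAs ICR1 and PWR1, chosen by name. All 8 were found among the 6663 features of the table. All 8 also belonged to the 6541 features that were compared, those whose average over the strains reached 1 FPKM. FPKM is the authors' read abundance scaled by transcript length and by the mapped reads of the library, so levels can be set side by side between genes. The strains were BY4741, the haploid wild type (WT), and 4 mutants of it. In set1∆ the gene of the histone H3 lysine 4 methyltransferase Set1 is deleted, and in set5∆ that of the histone H4 methyltransferase Set5. In set1∆ set5∆ both are deleted, and SET5 Y402A carries a substitution in Set5. All grew at 30 °C in rich glucose medium to mid-log phase, with 2 biological replicates per strain, and the table gives 1 combined value per strain. No spread between replicates can therefore be computed, no test was run, and the ratios below describe 1 value per strain.

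Flocculins are large, repeat-rich proteins of the cell wall that make yeast cells stick together. Flo1, Flo5 and Flo9 are close relatives that bind mannose chains on neighbouring cells, Flo10 is a more distant one, and Flo11 drives adhesion to surfaces, invasive growth and filament formation. FLO1, FLO5, FLO9 and FLO10 lie toward chromosome ends, and most members of the family are silent or nearly so in laboratory strains. Flo8, acting with Mss11, is the activator of FLO1 and FLO11. ICR1 is transcribed through the long FLO11 promoter toward the gene and represses it, and PWR1, made from the other strand, interferes with ICR1.

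The strain background bears on FLO8. The reference strain S288C, from which BY4741 derives, carries a nonsense mutation in this gene, and RefSeq annotates FLO8 as a pseudogene in assembly R64. In that assembly codon 142 of 800 is a stop, with 17.6% of the codons before it. The sequence around it, on the minus strand of chromosome V, is shown because the activator's transcript was measured in strains expected to carry this allele. Capitals mark the stop codon.
FLO8: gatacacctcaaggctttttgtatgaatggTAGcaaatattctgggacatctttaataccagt

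The second set of sequences bears on how far the family members can be told apart. The first 90 coding bases are given from R64 (chromosome I for FLO1 and FLO9, VIII for FLO5 and XI for FLO10), read 5′ to 3′ from the start codon, with capitals at each base that differs from FLO1 at the same position without gaps. FLO5 differs at 16 of them, FLO9 at 35 and FLO10 at 34.
FLO1: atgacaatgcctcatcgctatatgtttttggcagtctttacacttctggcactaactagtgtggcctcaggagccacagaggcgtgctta
FLO5: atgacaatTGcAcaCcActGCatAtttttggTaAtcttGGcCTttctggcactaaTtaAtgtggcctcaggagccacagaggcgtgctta
FLO9: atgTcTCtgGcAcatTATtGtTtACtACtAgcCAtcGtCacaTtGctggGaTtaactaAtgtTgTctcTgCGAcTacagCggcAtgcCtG
FLO10: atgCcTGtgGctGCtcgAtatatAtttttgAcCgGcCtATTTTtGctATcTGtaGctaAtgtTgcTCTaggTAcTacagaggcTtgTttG

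Further into the genes the relatives converge. FLO1 and FLO9 share an identical run of 817 bases, FLO1 and FLO5 one of 221, and FLO5 and FLO9 one of 159. Of the 50-base stretches of FLO9, 63.4% occur elsewhere in the genome, against 49.8% in FLO1 and 25.4% in FLO5. A read that lies wholly within such a stretch cannot be placed from its own sequence, so the values of these 3 genes are less certain. By how much depends on read length and pairing and was not tested. FLO10 and FLO11 share 0% of their 50-base stretches with other places, although 12.8% and 28.0% recur within the gene itself. FLO8, ICR1 and PWR1 are 100% unique by the same measure.

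All 8 transcripts had low levels, and they differed in level more than most of them differed between strains. In the wild type FLO8 was the most abundant at 18.5 FPKM, followed by FLO5 at 11.4 and FLO9 at 6.22. FLO10 at 4.02, PWR1 at 3.94, ICR1 at 3.35, FLO1 at 3.34 and FLO11 at 3.18 came next, and whether neighbours in this order differ cannot be judged without replicates. In the double deletion FLO10 stood at place 3 and FLO11 at place 4, behind FLO8 and FLO5. Of the compared features, 23.6% had a lower mean than FLO8, 13.9% a lower mean than FLO5 and 3.46% a lower mean than FLO1. In bulk RNA, fewer cells expressing a flocculin and less RNA in each cell cannot be told apart.

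**Figure D1:**
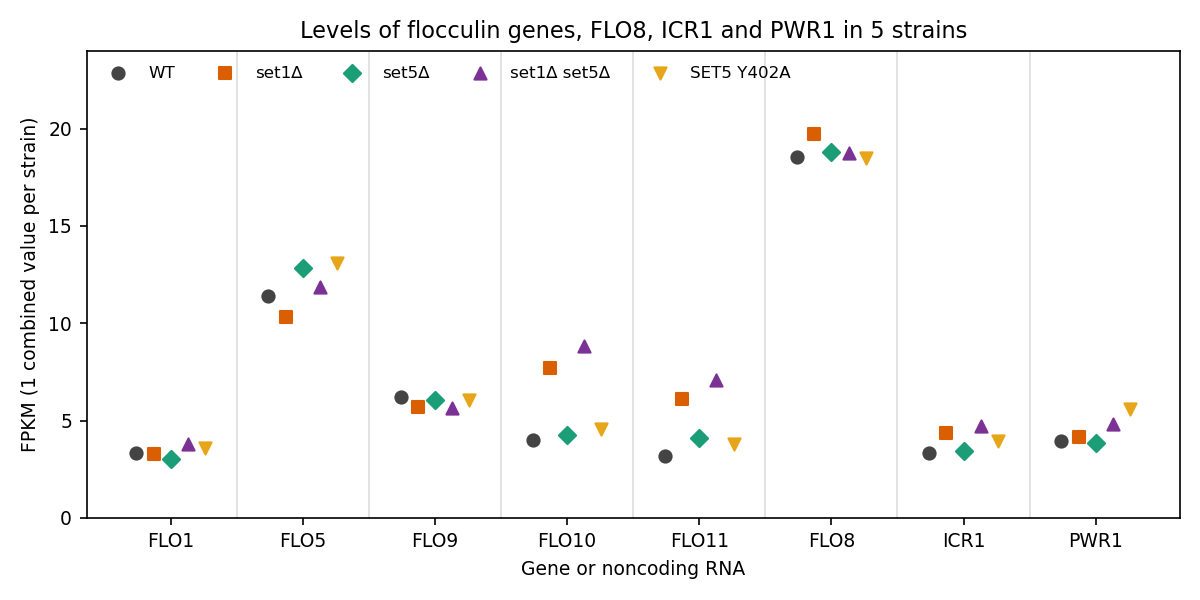
FPKM of each gene or noncoding RNA (y axis, linear from 0) in the 5 strains, 1 combined value per strain with no error. FLO10 and FLO11 are the members whose set1∆ and set1∆ set5∆ values lie apart from the other strains, at 7.70 and 8.84 FPKM for FLO10 and 6.09 and 7.10 for FLO11.

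FLO11 was higher in both strains that lack SET1. It stood at 3.18 FPKM in WT, 6.09 in set1∆, 4.09 in set5∆, 7.10 in set1∆ set5∆ and 3.77 in SET5 Y402A. The values without SET1 were thus above every value with it. The ratio of FPKM to the wild type was 1.92 in set1∆ and 2.23 in the double deletion, against 1.29 in set5∆ and 1.19 in SET5 Y402A. On the scale of log2(FPKM + 1), which understates ratios of scarce transcripts, these were 0.76, 0.96, 0.29 and 0.19.

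FLO10 was likewise lowest in the wild type and highest without SET1. It stood at 4.02 FPKM in WT, 7.70 in set1∆, 4.25 in set5∆, 8.84 in set1∆ set5∆ and 4.59 in SET5 Y402A. The 3 strains that keep SET1 lay within 0.568 FPKM of each other. Its log2 ratios to the wild type were 0.79 in set1∆, 0.06 in set5∆, 0.97 in the double deletion and 0.15 in SET5 Y402A.

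The close relatives did not share this pattern. FLO1 stood at 3.34 FPKM in WT, 3.31 in set1∆, 3.04 in set5∆, 3.81 in set1∆ set5∆ and 3.59 in SET5 Y402A. FLO5 stood at 11.4 FPKM in WT, 10.3 in set1∆, 12.8 in set5∆, 11.9 in set1∆ set5∆ and 13.1 in SET5 Y402A. FLO9 stood at 6.22 FPKM in WT, 5.70 in set1∆, 6.03 in set5∆, 5.66 in set1∆ set5∆ and 6.06 in SET5 Y402A. Their highest strain exceeded their lowest by factors of 1.25, 1.27 and 1.10, compared with 2.20 for FLO10 and 2.23 for FLO11. FLO5 was lowest in set1∆ and FLO9 in the double deletion. Because these genes share sequence, a difference in one of them could be spread over the others, which was not tested.

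FLO8 hardly varied. It stood at 18.5 FPKM in WT, 19.7 in set1∆, 18.8 in set5∆, 18.7 in set1∆ set5∆ and 18.5 in SET5 Y402A, and its highest and lowest strains differed by a factor of 1.07. That was the narrowest range of the 8 members.

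The noncoding RNAs at the FLO11 promoter were as scarce as FLO11 itself. ICR1 stood at 3.35 FPKM in WT, 4.38 in set1∆, 3.43 in set5∆, 4.71 in set1∆ set5∆ and 3.93 in SET5 Y402A. Its 2 highest values were those of the strains without SET1, with log2 ratios to the wild type of 0.30 and 0.39. With quantile-normalized values these became -0.13 and -0.11, so the direction of ICR1 depends on the scaling. PWR1 stood at 3.94 FPKM in WT, 4.13 in set1∆, 3.86 in set5∆, 4.84 in set1∆ set5∆ and 5.59 in SET5 Y402A. It was highest in SET5 Y402A, with a log2 ratio of 0.42 to the wild type and 0.44 to set5∆, and it stayed above both with quantile-normalized values. Its log2 ratios of 0.06 in set1∆ and 0.24 in the double deletion turned to -0.34 and -0.22 under that scaling.

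The layout of the locus limits what these values can say about either RNA. In R64 ICR1 ends 208 bases before the FLO11 start codon, PWR1 lies wholly inside ICR1 on the opposite strand over 941 bases, and these are 29.4% of ICR1. The library kit does not mark strand, so reads from the shared stretch cannot be assigned to one RNA from their sequence. The small open reading frame YIR020C also lies wholly inside ICR1, on its strand. It stood at 9.59 FPKM in WT, 15.8 in set1∆, 8.37 in set5∆, 13.4 in set1∆ set5∆ and 8.79 in SET5 Y402A. It was therefore above ICR1 as a whole in every strain, and highest in the strains without SET1. Coverage along ICR1 is not given by the table, and whether the reads of YIR020C belong to ICR1 was not tested.

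**Figure D2:**
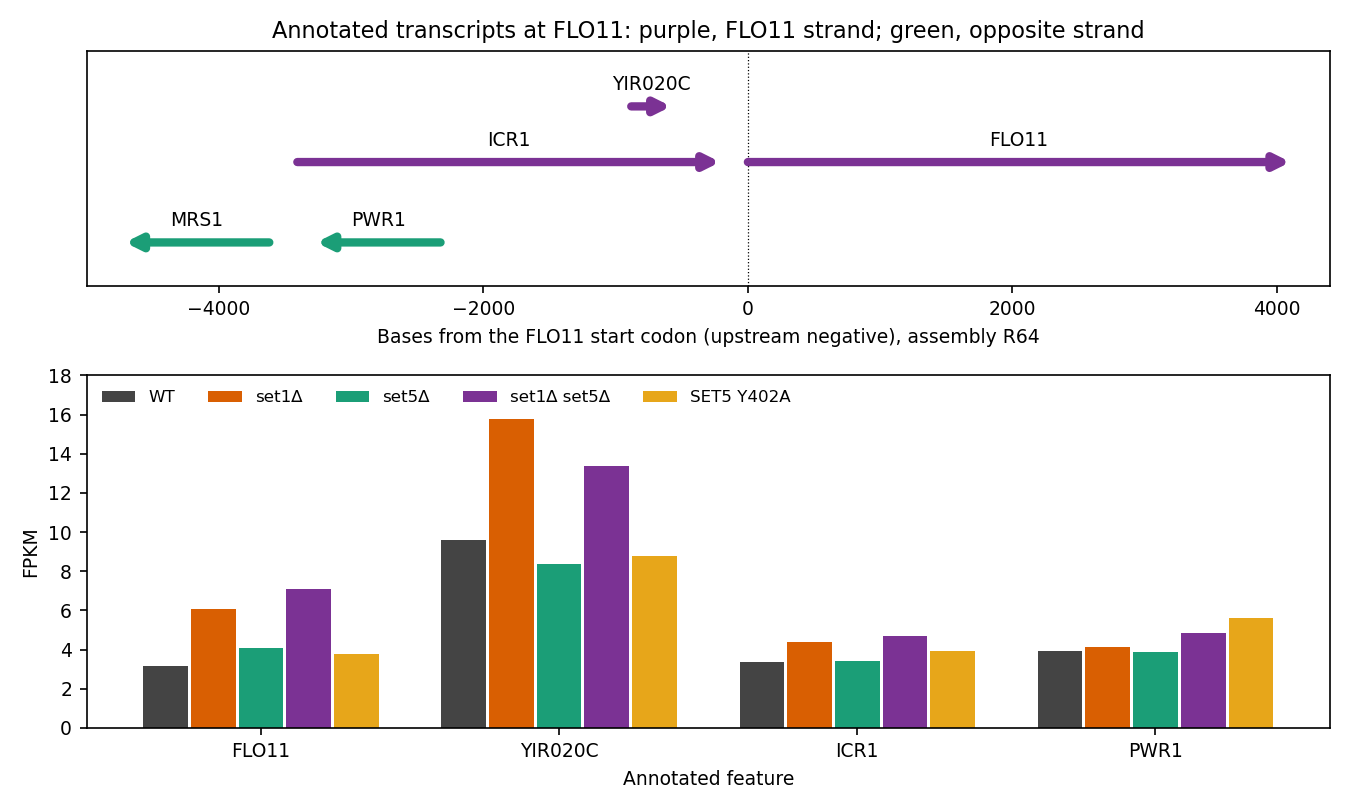
Top, annotated features at FLO11 in assembly R64 by distance in bases from the FLO11 start codon, with arrows in the direction of transcription. Bottom, FPKM (linear from 0) of 4 of them in the 5 strains, 1 value per strain with no error: FLO11 and YIR020C are highest in the strains without SET1, PWR1 in SET5 Y402A.

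The sequences upstream of FLO11 and FLO10 are shown because these genes had the widest ranges. Each run is the 300 bases before the start codon in R64, read toward the gene, on the minus strand of chromosome IX for FLO11 and the plus strand of chromosome XI for FLO10. The first 92 bases of the FLO11 run belong to ICR1. Capitals mark matches, on either strand, to the letters TGAAACA (the site of Ste12), CATTCC (Tec1), AGGGTC (Nrg1) or TATAAA (the TATA box). No match overlaps another.
FLO11: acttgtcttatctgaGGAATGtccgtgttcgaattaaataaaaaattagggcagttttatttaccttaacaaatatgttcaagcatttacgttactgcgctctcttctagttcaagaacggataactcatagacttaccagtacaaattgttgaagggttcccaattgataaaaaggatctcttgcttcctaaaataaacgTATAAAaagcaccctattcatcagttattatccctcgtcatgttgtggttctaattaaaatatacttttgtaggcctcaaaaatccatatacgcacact
FLO10: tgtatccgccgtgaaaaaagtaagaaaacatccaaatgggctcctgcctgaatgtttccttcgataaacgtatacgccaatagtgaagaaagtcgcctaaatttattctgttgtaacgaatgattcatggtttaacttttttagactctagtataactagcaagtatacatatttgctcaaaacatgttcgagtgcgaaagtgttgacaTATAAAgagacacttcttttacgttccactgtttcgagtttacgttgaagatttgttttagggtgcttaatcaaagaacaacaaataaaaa

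Both windows hold TATAAA, starting at position -99 for FLO11 and -91 for FLO10, counted back from the start codon. The same letters occur in 48.4% of the 6020 windows of this length before protein-coding genes, and in those of FLO1 (at -97) and FLO5 (at -86) but not in that of FLO9. CATTCC has 1 match before FLO11, at -285 and on the other strand, and 10.1% of all windows hold it. TGAAACA, held by 7.18% of all windows, and AGGGTC, held by 5.75%, have 0 matches in either window. The FLO11 promoter is far longer than this window, so these letters describe only its end nearest the gene.

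Against the wild type, 0 of 8 members were at least 2-fold higher or lower in any mutant on the log2(FPKM + 1) scale. The shares of all compared features past 2-fold were 2.37% higher and 0.489% lower in set1∆, 0.994% and 0.581% in set5∆, 2.83% and 0.520% in the double deletion, and 1.83% and 0.321% in SET5 Y402A. With a pseudocount of 0.1 in place of 1, 2 of 8 passed 2-fold, FLO10 at 1.12 and FLO11 at 1.14 in the double deletion, beside 3.70% of all compared features higher with that pseudocount. With a threshold of 1.5-fold, chosen after the values were seen, FLO10 and FLO11 were higher in set1∆ and in the double deletion, and 0 members were lower. This makes 2 of 8, beside 6.97% of all compared features higher and 2.26% lower in set1∆ and 8.21% and 2.92% in the double deletion. In set5∆ and SET5 Y402A, 0 of 8 passed 1.5-fold, beside 2.69% and 4.16% higher and 1.21% and 1.24% lower among all features. The median log2 ratio of the 8 members was 0.07 in set1∆, 0.02 in set5∆, 0.20 in the double deletion and 0.17 in SET5 Y402A, while that of all compared features lay between -0.01 and 0.01.

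As deposited, scarce features as a class stood higher in the strains without SET1. This is the background against which FLO10 and FLO11 have to be read. Features listed at 0 numbered 76 in WT, 68 in set5∆ and 56 in SET5 Y402A, but 21 in set1∆ and 20 in set1∆ set5∆. The sum of FPKM was also lowest in the strains without SET1. Whether depth or scaling differed between the strains was not tested, and the class was not read with quantile-normalized values. Of the 748 features with a mean between 1 and 10 FPKM, 27.8% were at least 1.5-fold higher in set1∆ and 30.9% in the double deletion, against 5.88% in set5∆ and 7.35% in SET5 Y402A. Of the 8 members 6 belong to this class, and 2 of these 6 passed 1.5-fold in set1∆ and in the double deletion, a share close to that of the class. The median log2 ratio of the class was 0.26 in set1∆ and 0.32 in the double deletion.

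Within that class the members spread to both sides. FLO10 and FLO11 lay above its upper quartile of 0.64 in set1∆ and of 0.70 in the double deletion. In set1∆ 18.05% of the class reached the ratio of FLO10 and 19.1% that of FLO11, and in the double deletion 14.8% and 15.4%. ICR1 lay near the class median, with 46.4% and 44.0% of the class at or above it. FLO1, FLO9 and PWR1 lay below the class median in both strains, and 81.7% and 84.9% of the class were at or above FLO9. In set5∆ 13.6% of the class reached the ratio of FLO11, and in SET5 Y402A PWR1 had the highest ratio of the 6.

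**Figure D3:**
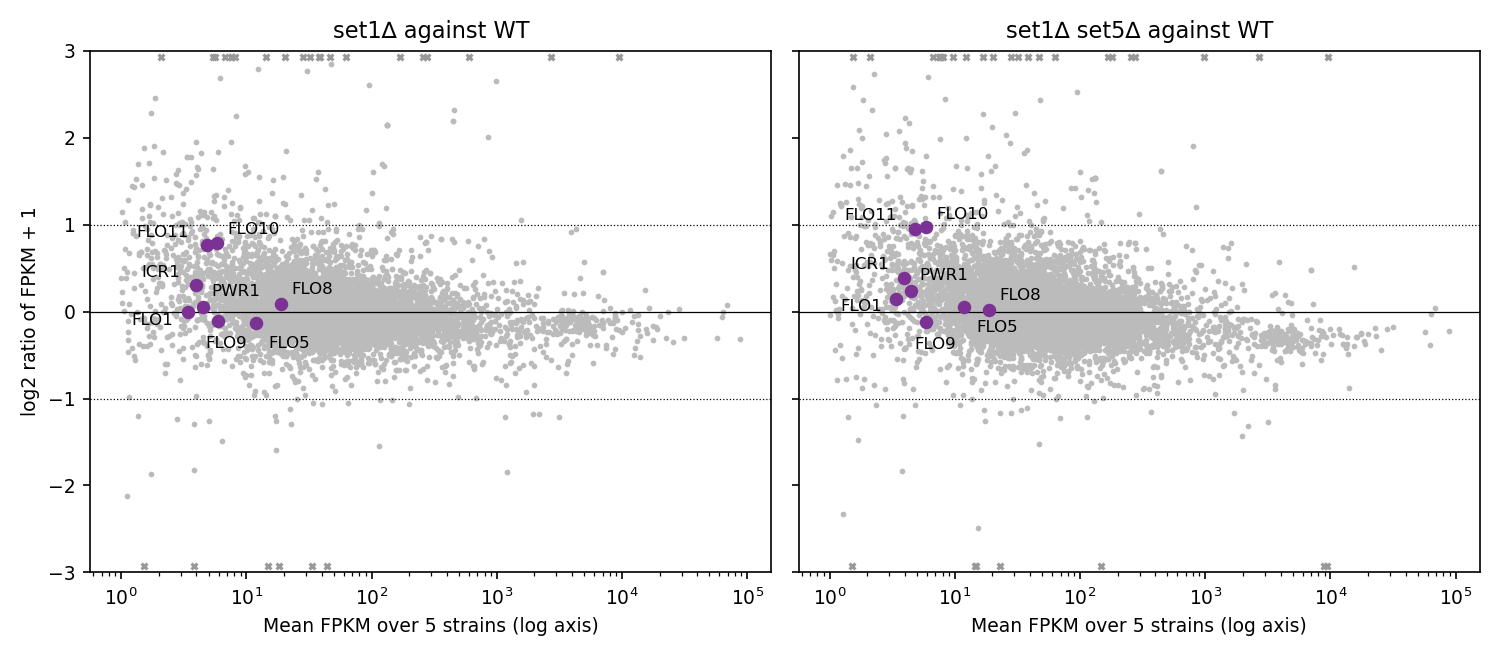
Log2 ratio of FPKM + 1 to WT (y axis) against mean FPKM over the 5 strains (log axis) for all 6541 compared features (grey) and the 8 members (purple), with dotted lines at 2-fold. Crosses at the edges stand for the 27 (set1∆) and 30 (set1∆ set5∆) features at or beyond 2.9 in size. FLO10 and FLO11 sit under the upper line among scarce features that mostly lie above 0.

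**Figure D4:**
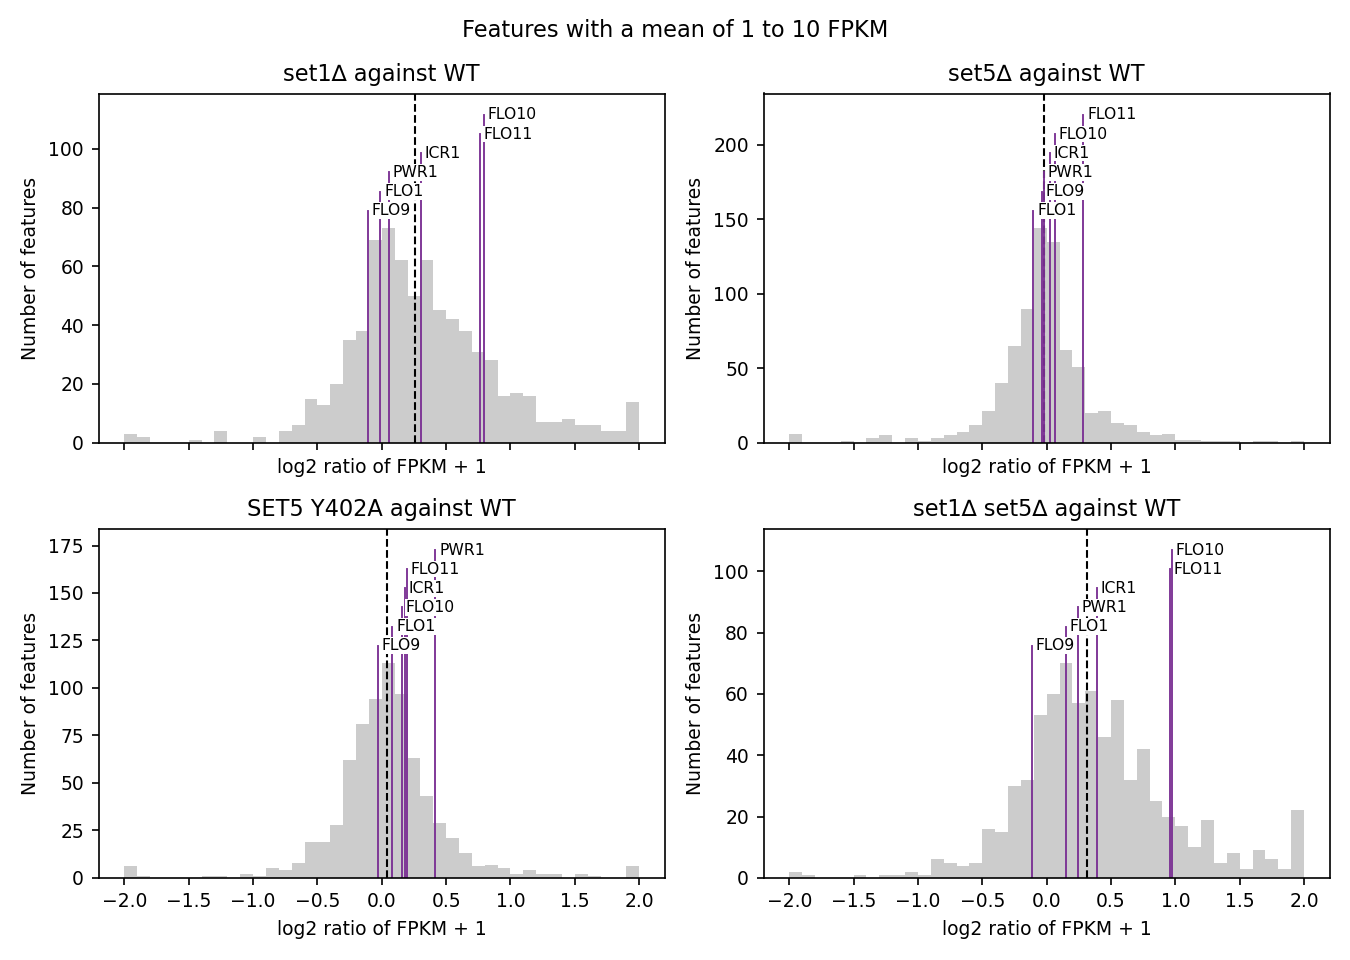
Number of features (y axis) by log2 ratio to WT (x axis) among the 748 features with a mean of 1 to 10 FPKM, 1 panel per mutant, with values beyond the axis gathered in the end bars. Dashed lines mark the class median, which is 0.26 in set1∆ and 0.32 in set1∆ set5∆, and purple lines the 6 scarce members.

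The split of all features also moved with the scaling. As deposited, 155 features passed 2-fold upward in set1∆ and 32 downward, against 101 and 49 with quantile-normalized values. At 1.5-fold these were 456 and 148 against 312 and 228. For the double deletion the 2-fold split was 185 to 34 as deposited and 122 to 56 with quantile-normalized values, and the 1.5-fold split 537 to 191 and 367 to 283. FLO10 and FLO11 remained higher under that scaling, at 0.52 and 0.37 in set1∆ and 0.65 and 0.53 in the double deletion, so that FLO10 alone passed 1.5-fold, and only in the double deletion.

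The double deletion was set against each single deletion to separate the absence of SET5 from that of SET1. Without SET1 in both strains, the added absence of SET5 went with small ratios. FLO11 stood at 0.19, PWR1 at 0.19, FLO5 at 0.18, FLO10 at 0.18 and FLO1 at 0.16 on the log2 scale, and FLO8 at -0.07. None of the 8 passed 1.5-fold or 2-fold, beside 1.02% higher and 0.841% lower at 1.5-fold and 0.566% and 0.352% at 2-fold among all features, and 3.48% of the scarce class higher at 1.5-fold. Without SET5 in both strains, the added absence of SET1 gave log2 ratios of 0.91 for FLO10, 0.67 for FLO11, 0.37 for ICR1 and -0.08 for FLO9. FLO10 and FLO11 passed 1.5-fold and 0 passed 2-fold (with a pseudocount of 0.1, FLO10 did at 1.04), beside 8.00% higher and 4.05% lower at 1.5-fold and 2.86% and 1.07% at 2-fold among all features. In the scarce class 31.4% were at least 1.5-fold higher, so 2 of 6 is again close to the class. With quantile-normalized values the 2-fold split of this comparison was 115 to 90 instead of 187 to 70, the 1.5-fold split 386 to 324 instead of 523 to 265, and 0 members passed 1.5-fold.

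The level in the double deletion was set beside what the single deletions give together. With 1 value per strain, how close they are cannot be judged. For FLO11, 7.10 FPKM stood beside 7.85 if the ratios of the single deletions multiply and 7.01 if their differences add. FLO10 stood at 8.84 FPKM beside 8.14 and 7.93. FLO1 stood farther off, at 3.81 FPKM beside 3.01 by either reckoning, as did PWR1, at 4.84 beside 4.05. On the log2 scale, the ratio of the double deletion less those of both single deletions, called the interaction here, was -0.09 for FLO11 and 0.11 for FLO10. Its highest values among the members were 0.26 for FLO1 and 0.21 for PWR1. None of the 8 reached 1.5-fold or 2-fold, beside 2.08% above and 3.10% below at 1.5-fold and 0.780% and 1.22% at 2-fold, and 8.56% of the scarce class above at 1.5-fold.

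SET5 Y402A was set against set5∆ to compare an altered Set5 with none. PWR1 had a log2 ratio of 0.44, FLO1 one of 0.19 and ICR1 one of 0.15, while FLO11 stood at -0.09. Here 0 of 8 members passed 1.5-fold or 2-fold, beside 2.23% higher and 0.841% lower at 1.5-fold and 0.826% and 0.321% at 2-fold among all features, and 6.42% of the scarce class higher at 1.5-fold. At or above the ratio of PWR1 were 3.44% of all compared features and 11.1% of the scarce class.

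The features most like FLO11 and FLO10 were found by the distance between their 4 log2 ratios to the wild type, over 5 strain values. Among 5764 features averaging 10 FPKM or more and above 0 in every strain, those nearest to FLO11 were FHN1 (0.16), CDC27 (0.20) and COX20 (0.20). Those nearest to FLO10 were REX3 (0.08), YDL211C (0.09) and YJL163C (0.14). The candidates averaging at least 1 FPKM and above 0 in every strain numbered 6486. Among them FLO10 was the 16th nearest to FLO11 at a distance of 0.23, and ICR1 stood at place 637. Both genes were picked for their range after the values were seen, since no member reached the range of 1 set for this search.

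Genes beside the members differed in their own ways. The 25 neighbours, up to 2 on each side, had a median log2 ratio of 0.21 in set1∆ and 0.26 in the double deletion, with YAR061W and YHR212W-A, whose values are identical, counted separately. In set1∆ 2 passed 2-fold upward and 2 downward, and in the double deletion 2 and 0, beside the shares of 2.37% and 0.489% and of 2.83% and 0.520% for all features. Counting the identical pair once left these counts as they were, over 24 neighbours. The next feature in gene order past the end of FLO11, though not adjoining it, was the small open reading frame YIR018C-A. It stood at 15.1 FPKM in WT, 45.4 in set1∆, 29.9 in set5∆, 56.1 in set1∆ set5∆ and 32.5 in SET5 Y402A. It was above the wild type in every mutant, unlike YIR020C. YAP5, an iron-responsive transcription factor gene next to it, stood at 23.4, 33.3, 24.3, 37.9 and 25.1 FPKM in the same order of strains. On the far side of PWR1, MRS1, a splicing factor gene of mitochondria, was at 43.7 FPKM in the wild type and between 38.3 and 41.0 in the mutants. Beyond it YIR021W-A stood at 5.72 FPKM in WT, 1.81 in set1∆ and 7.73 in the double deletion.

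Around FLO10, which has 4 annotated genes between it and the chromosome end, the neighbours had smaller ratios than FLO10 in set1∆ and the double deletion, though not in set5∆ or SET5 Y402A, where YKR104W (0.40 and 0.20) and SIR1 (0.09 and 0.19) exceeded it. SIR1, a silencing gene, had a log2 ratio of 0.30 in set1∆ and 0.20 in the double deletion, NFT1, a transporter gene, 0.20 and 0.47, and YKR104W 0.47 and 0.73. SKG1 stood at -0.00 and 0.11. Next to FLO8, the meiotic gene MAM1 had 1.21 FPKM in WT, 3.81 in set1∆ and 3.92 in the double deletion, while GLE2, KAP123 and SWI4 had log2 ratios between -0.24 and 0.19 in these strains. Near FLO9, YAL064W stood at 2.83 FPKM in WT, 0.665 in set1∆ and 0.486 in set5∆, GDH3 had log2 ratios of 0.03 and 0.31 in set1∆ and the double deletion, BDH2 ones of -0.21 and -0.09, and YAL063C-A ones of 0.26 and -0.12. Beside FLO1 and FLO5, SWH1, YAT1, CRG1 and YHR210C had log2 ratios between 0.16 and 0.60 in the same strains, and YAR064W ones of -0.56 and -0.15.

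Fragments and pseudogenes of the flocculin family formed a list of 5. All 5 were higher in set1∆ with a median log2 ratio of 0.39, which became -0.06 with quantile-normalized values, and 4 were higher in the double deletion with a median of 0.37, which became 0.10. In the scarce class 71.7% of features were higher in set1∆ and 76.6% in the double deletion. YAR062W and YHR213W carry identical values, at 2.70 FPKM in the wild type and 4.55 in the double deletion, and so are not separate measurements. With this pair counted once, 4 of 4 and 3 of 4 were higher, with medians of 0.29 and 0.20 (-0.06 and -0.09 with quantile-normalized values). YAR061W, with the same values as YHR212W-A, stood at 8.62 FPKM in WT, 12.3 in set1∆, 17.0 in set5∆, 8.51 in set1∆ set5∆ and 15.03 in SET5 Y402A, an interaction of -1.39.

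The regulators that control FLO11 were examined as lists of named genes. Of 9 activators, 3 were higher in set1∆ and 3 in the double deletion, with medians of -0.07 and -0.14. Those higher include FLO8, at 0.09 and 0.02, a member already reported and expected to carry the stop codon here. ASH1, at 0.07 and 0.05, was also higher and stands in the Rpd3L list below as well. MGA1, related to heat shock factors, was the exception in SET5 Y402A. Its level there was 16.8 FPKM, with 2.86 in WT, 4.30 in set1∆, 6.26 in set5∆ and 5.20 in set1∆ set5∆. It was the only activator past 2-fold. MSS11, the partner of Flo8, stayed between 14.9 and 15.9 FPKM, and STE12 and TEC1, factors of the filamentous growth pathway, were at 64.3 and 68.9 FPKM in the wild type and lower in every mutant.

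Of 10 genes listed as repressors, 8 were higher in the double deletion, with a median log2 ratio of 0.21, and 5 in set1∆, with one of 0.15. Both counts include the kinase gene YAK1, at 0.41 and 0.35, which is not a clear repressor of FLO11. SFL1, the repressor that opposes Flo8 at this promoter, stood at 18.2 FPKM in WT, 23.8 in set1∆, 17.1 in set5∆, 26.03 in set1∆ set5∆ and 15.7 in SET5 Y402A. Like FLO11 it was highest in the strains without SET1. NRG1, a glucose-dependent repressor, was at 14.7 FPKM in the wild type and 40.8 in SET5 Y402A, the only repressor past 2-fold. Both lists stand beside the 2-fold shares of all features given above. Of all compared features, 49.6% were higher in set1∆ and 50.6% in the double deletion. Whether the counts in lists this short differ from those shares was not tested.

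**Figure D5:**
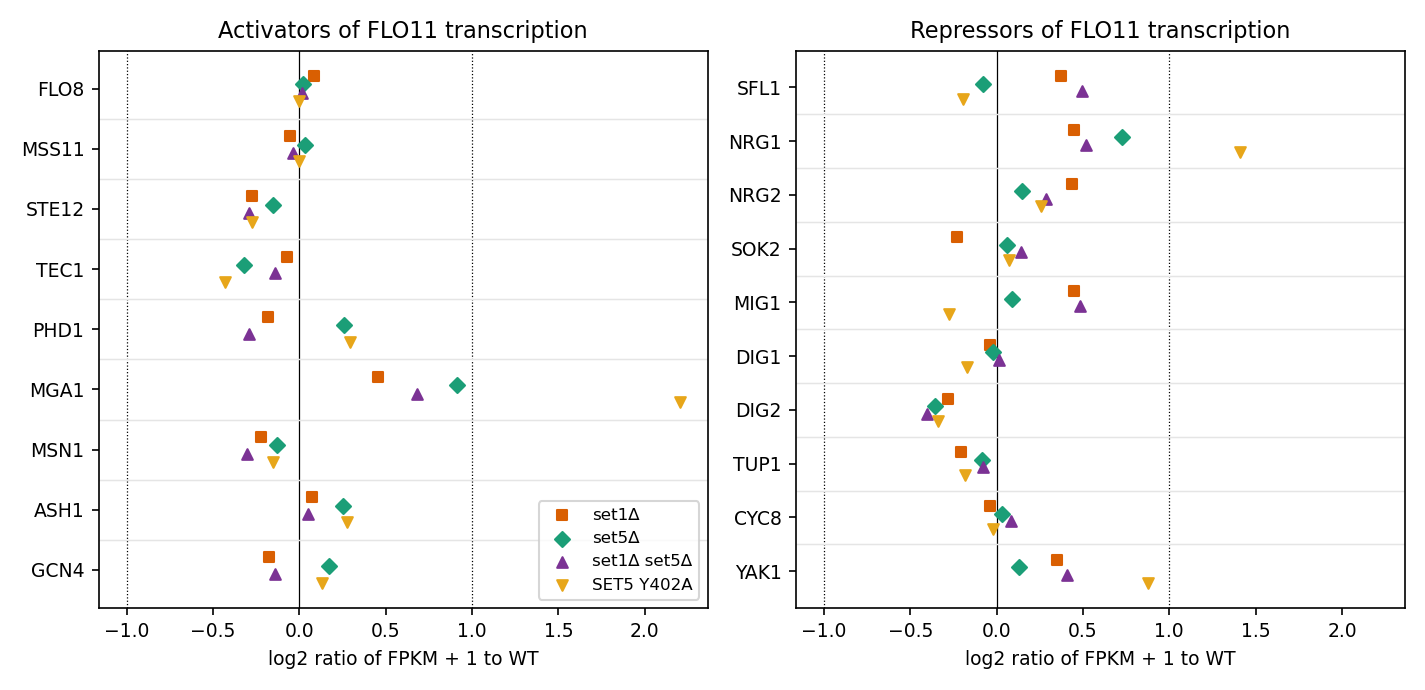
Log2 ratio of FPKM + 1 to WT (x axis, dotted lines at 2-fold) for the listed activators and repressors of FLO11 in the 4 mutants, 1 value per strain with no error. MGA1 (2.20) and NRG1 (1.41) pass 2-fold, both in SET5 Y402A. YAK1 is drawn with the repressors as listed, though it is not a clear repressor of FLO11.

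The 2 signalling pathways upstream of these factors held 0 genes past 2-fold in any of the 8 comparisons. Among all compared features the shares lay between 0.566% and 2.86% higher and between 0.321% and 1.22% lower. A count of 0 therefore says little in lists of this size. In the cyclic AMP pathway, which activates Flo8 through protein kinase A, 8 of 14 genes were higher in set1∆ and 10 in the double deletion. The list mixes genes that promote the pathway with ones that restrain it, such as PDE2 and BCY1. These counts therefore give no direction for the pathway. The G protein gene GPA2 had a log2 ratio of 0.82 to the wild type in SET5 Y402A, and the phosphodiesterase gene PDE2 one of 0.76 in the double deletion. The list median of 0.11 in the double deletion turned to -0.02 with quantile-normalized values. In the filamentous growth MAP kinase pathway 11 of 12 genes were lower in SET5 Y402A, with a median of -0.14, TEC1 at -0.43 the farthest from 0, and KSS1, the kinase, at -0.30 in set5∆. Of 7 targets of that pathway other than FLO11, 6 were lower in set1∆, and 6 each in the double deletion and SET5 Y402A. MSB2, KSS1 and TEC1 stand in both lists, and STE12 and TEC1 also among the activators, so these counts overlap. Of all compared features, 49.6% were higher in set1∆, 50.6% in the double deletion and 48.5% in SET5 Y402A. PGU1, a pectin-degrading enzyme gene, stayed between 12.0 and 12.5 FPKM. DDR48 stood at 128 FPKM in the double deletion, 271 in set5∆ and 234 in the wild type, a log2 ratio of -1.08 between the deletions.

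Chromatin regulators of the FLO11 promoter likewise held no gene past 2-fold, beside the same low shares of all features given for the pathways. Of the 3 subunits of the Hda1 deacetylase, HDA1 and HDA2 were lower in set1∆, at -0.33 and -0.40, and HDA3 was at 0.19. The 12 genes of the Rpd3L deacetylase had a median of 0.07 in set1∆ and 0.05 in the double deletion, with SAP30 at 0.44 in SET5 Y402A and UME1 at -0.33 and DEP1 at 0.31 in the double deletion. The 12 genes of the SWI/SNF remodeller had medians of -0.07 and -0.08, with SNF11 at -0.50 in set1∆ and TAF14 at -0.46 and SNF2 at 0.30 in the double deletion. The 6 sirtuin silencing genes had medians of 0.07 and 0.16 in the same strains, the latter turning to -0.01 with quantile-normalized values. Among them SIR2 had the lowest ratio, -0.91 in set5∆, and SIR3 the highest, 0.45 in the double deletion.

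The strain labels were checked against single genes. SET1 stood between 24.2 and 25.6 FPKM where it is intact and at 0.0328 and 0.0324 in its deletions, and SET5 between 34.6 and 41.8 against 0.0545 and 0.0167. These levels cannot tell SET5 Y402A from WT, since neither gene is deleted in either strain. The a-cell genes were abundant, with the pheromone gene MFA1 between 76587 and 103882 FPKM and the receptor gene STE2 between 620.4 and 750.4. Of the alpha-cell genes, the receptor gene STE3 lay between 1.99 and 5.80 FPKM, MF(ALPHA)1 between 1.19 and 8.83, MF(ALPHA)2 between 23.4 and 32.9 and SAG1 between 19.3 and 25.4, and none was at 0. LEU2 and MET17, deleted in BY4741, were at or below 0.707 and 0.0926 FPKM, and HIS3, of which only a part is deleted, lay between 76.8 and 133.9.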

How the data were processed

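RNA from 10 libraries, 2 per strain, was sequenced on a HiSeq2000. Libraries were made from 8 µg of total RNA with a TruSeq RNA v2 kit, per the labels' protocols. The authors deposited 1 table with 1 FPKM column per strain, and its header names no unit. FPKM was inferred because the values are decimals and Cufflinks is listed. Tools listed, per the submitters' processing notes, are TopHat2 2.0.5, Cufflinks 2.0.2 with Cuffdiff, R 2.15.1 and FastQC. The build, the annotation and how replicates were combined were not given in the sources used here. If multiply mapped reads were shared among copies, this would blur FLO1, FLO5 and FLO9.

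Ratios were log2((FPKM + 1) / (reference FPKM + 1)) over features averaging 1 FPKM or more, in 8 comparisons, with Python 3.11.15 and pandas 2.3.3. There was 1 value per strain, so no test, error or p-value could be had. Depth is unknown, since only 2 features were above 0 and below 0.3 FPKM in all strains. The table had 0 unused columns. An exact 0 can be a failed estimate, and all 8 members were above 0 throughout. Of the features, RefSeq assembly R64 held 5934 under their locus tag and 30 under their symbol, and 699 were unmatched. Sequences and gene order come from R64, which may not be the authors' build, so no coordinates are given. Uniqueness was counted over 50-base stretches on both strands, and identical runs by exact matching.

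The members and all 12 lists were chosen with earlier results of these data known. Named genes were the 8 members, 2 annotated neighbours on each side, list genes past 2-fold in any comparison or otherwise those with the largest ratio to the wild type, and the features most like a member. One gene that this rule names is not reported here. YIR020C and other genes outside this rule were named after their values were seen. Alternatives were pseudocounts of 0.1 and 5, other filters, median centring and quantile normalization. Members' 2-fold calls under these settings and the counting of identical features once were added after the values were seen. The fold counting was tested on simulated data, with differences above 2-fold planted only in features of at least 10 FPKM in WT. It therefore says nothing about calls among the scarcer members.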

Additional observations from a re-analysis of the deposited data

How the results depend on the processing

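No paired analysis was possible because the table gives 1 combined value per strain, and for the same reason no replicate could be left out. Median centring and a pseudocount of 0.1 moved no member's log2 ratio by 0.2 or more and no count of features past 2-fold by over 1.5 times. The latter still took members over the 2-fold line, from 0 to 2 in set1∆ set5∆ against the wild type (FLO10 0.97 to 1.12, FLO11 0.96 to 1.14) and from 0 to 1 against set5∆ (FLO10 0.91 to 1.04). With quantile-normalized values the median of the 8 members was -0.21 in set1∆ and -0.13 in set1∆ set5∆ against the wild type, and -0.17 for set1∆ set5∆ against set5∆, while FLO10 and FLO11 stayed above 0 in all 3. The number of features past 2-fold in either direction moved by over 1.5 times in these cases. Requiring a mean of at least 10 FPKM left 88 in set1∆ and 109 in set1∆ set5∆ against the wild type, 38 for set1∆ set5∆ against set1∆ and 130 against set5∆, where the main counts were 187, 219, 60 and 257. A pseudocount of 5 left 79, 103 and 129 in place of 187, 219 and 257, and 47 instead of 75 for SET5 Y402A against set5∆. With that pseudocount FLO10 and FLO11 had log2 ratios of 0.49 and 0.44 in set1∆ and 0.62 and 0.57 in the double deletion, so their 1.5-fold calls in set1∆ were lost, as was that of FLO11 in the double deletion and both against set5∆. Dropping the filter moved no such count by over 1.5 times. Without replicates or depth, differences of this size in such scarce transcripts cannot be told from measurement error.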

Other observations

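Other proteins of the cell surface were read beside the flocculins as a list of 15 agglutinins and cell wall genes. In set1∆ 7 were higher and 8 lower, with a median log2 ratio of -0.02, and in the double deletion 9 and 6, with one of 0.11. Of all compared features, 49.6% and 50.6% were higher in these strains. At least 2-fold higher were 0.994% of them in set5∆ and 1.83% in SET5 Y402A. SPI1, a stress-induced wall protein gene, was the only one past 2-fold, at 38.3 FPKM in WT, 39.0 in set1∆, 90.4 in set5∆, 42.0 in set1∆ set5∆ and 150.01 in SET5 Y402A. It was high in the SET5 mutants that keep SET1, unlike FLO10 and FLO11. PIR3, a wall protein gene, stood at 7.25 FPKM in WT, 11.7 in set1∆, 9.07 in set5∆, 14.1 in set1∆ set5∆ and 7.64 in SET5 Y402A, the same order of strains as FLO11. PIR3 was named after its values were seen.

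Of 16 listed long noncoding RNAs, 11 were compared. Their median log2 ratio of 0.06 in set1∆ and 0.24 in the double deletion became -0.34 and -0.22 with quantile-normalized values. RUF5-1 and RUF5-2 carry identical values, and counting them once turned the medians as deposited to -0.19 and -0.13. RUF23 stood at 1.69 FPKM in WT, 6.14 in set1∆, 2.14 in set5∆, 5.10 in set1∆ set5∆ and 1.46 in SET5 Y402A, past 2-fold in both strains without SET1. It belongs to the scarce class, and 2.37% and 2.83% of all compared features were 2-fold higher in these strains. SRG1, whose transcription through the SER3 promoter represses that gene, stood at 175.3 FPKM in WT, 100.4 in set1∆, 146 in set5∆, 85.3 in set1∆ set5∆ and 139 in SET5 Y402A. It was lowest in the strains without SET1, and past 2-fold in the double deletion at a log2 ratio of -1.03. Of all compared features 0.520% were 2-fold lower there.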
